A study of Rattus norvegicus with 9 samples.

Results

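Voltage-gated sodium, potassium and calcium channels are the membrane proteins that make and shape electrical signals in neurons. Each has a pore subunit that opens when the membrane potential moves, and most pores sit with auxiliary subunits that change their traffic to the membrane or their gating. In brain, sodium pores carry the upstroke of the action potential, potassium pores end it and set the firing pattern, and calcium pores couple depolarisation to transmitter release and to signals inside the cell. The genes were chosen from a list of 41 rat channel genes, and their probes were found by the transcript accession that the array annotates to each spot. A probe was found for 39 of the 41 genes, with 49 probes among 30367 on the array, and 38 genes passed the filter on dim probes and were tested. Kcnq5 and Cacna1d had no matched probe. The probe of Kcna2, a Kv1 pore of axons, was well above background on 2 of 3 arrays in each group and was not tested.

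RNA was measured on 9 one-colour (Cy3) Agilent arrays of brain tissue from male Sprague Dawley rats. The groups were 3 sham-operated rats (sham), 3 rats in which the middle cerebral artery was occluded (MCAO) and then reperfused and which got saline (vehicle), and 3 rats with the same occlusion that got salidroside, a phenylethanoid glycoside of Rhodiola plants, at a dose of 50 mg/kg. Both MCAO groups received 1 intraperitoneal injection a day over 6 days, the first of them 1 h after blood flow returned, and ischemic brain was dissected. The labels give no brain region, no age and no length of occlusion, and do not say whether sham rats were injected. The comparisons asked how channel transcripts in MCAO brain stood against sham, and how they stood with salidroside against vehicle.

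Sham replicates 2 and 3 gave nearly the same values. Over 5535 bright probes with a single spot, the median absolute deviation of their log2 differences was 0.0861, where the scatter between repeated spots of a probe gives 0.0841. The other pairs of arrays within a group ranged from 0.17 to 0.356, or 2.48 to 5.16 times spot noise. Sham replicates 2 and 3 thus differed by about spot noise (a ratio of 1.02) and were counted as 1 sample, so that 8 samples were fitted, with n = 2 in sham. Sham replicate 3 was the dimmest array, with 65.63% of probes well above background against 81.96% to 88.53% on the others. Arrays with the same scan identifier in the file headers are taken here as 1 slide. No such slide held both sham and MCAO arrays, so slide and ischemia cannot be told apart. The arrays also differed in markers of brain regions. A list of 9 striatal spiny neuron genes stood 2.18 above its mean over samples (log2) in sham replicate 1, and between -0.56 and -0.12 in the other arrays. A list of 4 cerebellar genes stood at 2.32 in vehicle replicate 2, and a list of 5 choroid plexus genes at 3.15 in vehicle replicate 3. The part of these differences in the channel results was not tested.

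No channel gene passed the test in any comparison, and most of them were lower in vehicle than in sham and higher with salidroside than with vehicle. Levels are given as log2 signal minus the array's 75th percentile, so 0 is the level at that percentile, and levels of different genes are not compared. In vehicle against sham, 30 of the 38 genes had a difference below 0 and 8 above 0, with a median of -0.378. The brightest probe stood for each gene, and for Kcnab1, Kcnh2, Cacna1a and Cacna1b a second probe had the opposite sign. Over all 22784 features tested, 39.2% were below 0, with a median of 0.122. The members were chosen with earlier results of these data known, so contrasts with all features, here and below, are not independent of that choice. With limma and Benjamini-Hochberg adjustment over all features, 0 of the 38 had an adjusted p under 0.05, where 124 of all features (0.544%) did, 100 lower in vehicle (0.439%) and 24 higher (0.105%). In bulk tissue, fewer cells of a type and less RNA per cell cannot be told apart. At an unadjusted p under 0.05, 8 channel genes were lower and 0 higher, where 5.42% of all features were lower and 13.2% higher. In 10 channel genes every vehicle sample lay below every sham sample, and in 1 every vehicle sample lay above, where the shares of all features were 10.8% and 23.9%. Vehicle replicate 3 had the lowest channel levels: without it the median was -0.216, with 3 genes lower and 1 higher at an unadjusted p under 0.05, where 3.72% of all features were lower and 7.45% higher. Without sham replicate 1 these counts were 4 and 0, where the shares of all features were 5.21% and 7.05%. With normexp background correction they were also 4 and 0, where the shares were 3.01% and 1.79%. With slide as a random block 0 of the 38 were called and the median was -0.337.

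In salidroside against vehicle, 32 of the 38 genes had a difference above 0 and 6 below 0, with a median of 0.243, where 57.6% of all features were above 0 with a median of 0.049. For Kcnab1, Kcnd2, Kcnh2 and Cacna1c a second probe had the opposite sign. None of the 38 was called by limma, and 0 of all features (0%) were. At an unadjusted p under 0.05, 7 channel genes were higher and 0 lower, where the shares of all features were 2.63% and 2.38%. In 9 channel genes every salidroside sample lay above every vehicle sample, and in 0 below, where the shares of all features were 5.44% and 6.47%. Scn8a, counted among the 32 and the 9, passed the filter on dim probes only through the salidroside arrays. Within slide 1, which held vehicle replicates 1 and 3 and salidroside replicates 2 and 3, 31 of 38 genes were higher with salidroside, with a median of 0.268. Within slide 2, which held vehicle replicate 2 and salidroside replicate 1, 26 of 38 were, with a median of 0.219, where that of all features was -0.029. Shares of all features above 0 were not computed within slides, nor was their median within slide 1. Leaving out vehicle replicate 3 gave a median of 0.154 with 5 genes higher at an unadjusted p under 0.05, where 2.52% of all features were, and leaving out vehicle replicate 1 gave 11 such genes, where 3.39% were. The sample titles also share a number between vehicle replicate 1 and salidroside replicate 3, 2 and 1, and 3 and 2, in that order, and the labels do not say what it stands for. Within these 3 pairs 26, 26 and 34 of the 38 genes were higher with salidroside, and the medians were 0.119, 0.219 and 0.441, where those of all features were 0.071, -0.029 and 0.104. With normexp correction the median of the channel genes was 0.569 and that of all features 0.541, so relative to all features the shift was near 0 there. The vehicle arrays stand in both comparisons, so the opposite signs of the 2 are not independent of each other.

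In salidroside against sham the median of the 38 genes was -0.084, where all features had a median of 0.143, and 23 genes were below 0 and 15 above, where 33.8% of all features were below 0. None was called, where 0.478% of all features were, 0.413% lower and 0.0658% higher. At an unadjusted p under 0.05, 2 channel genes, Scn2b and Cacna1e, were higher and 0 lower, where the shares of all features were 10% and 2.8%. Scn2b passed the filter on dim probes only through the MCAO groups. The median became 0.034 without salidroside replicate 3.

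**Figure D1:**
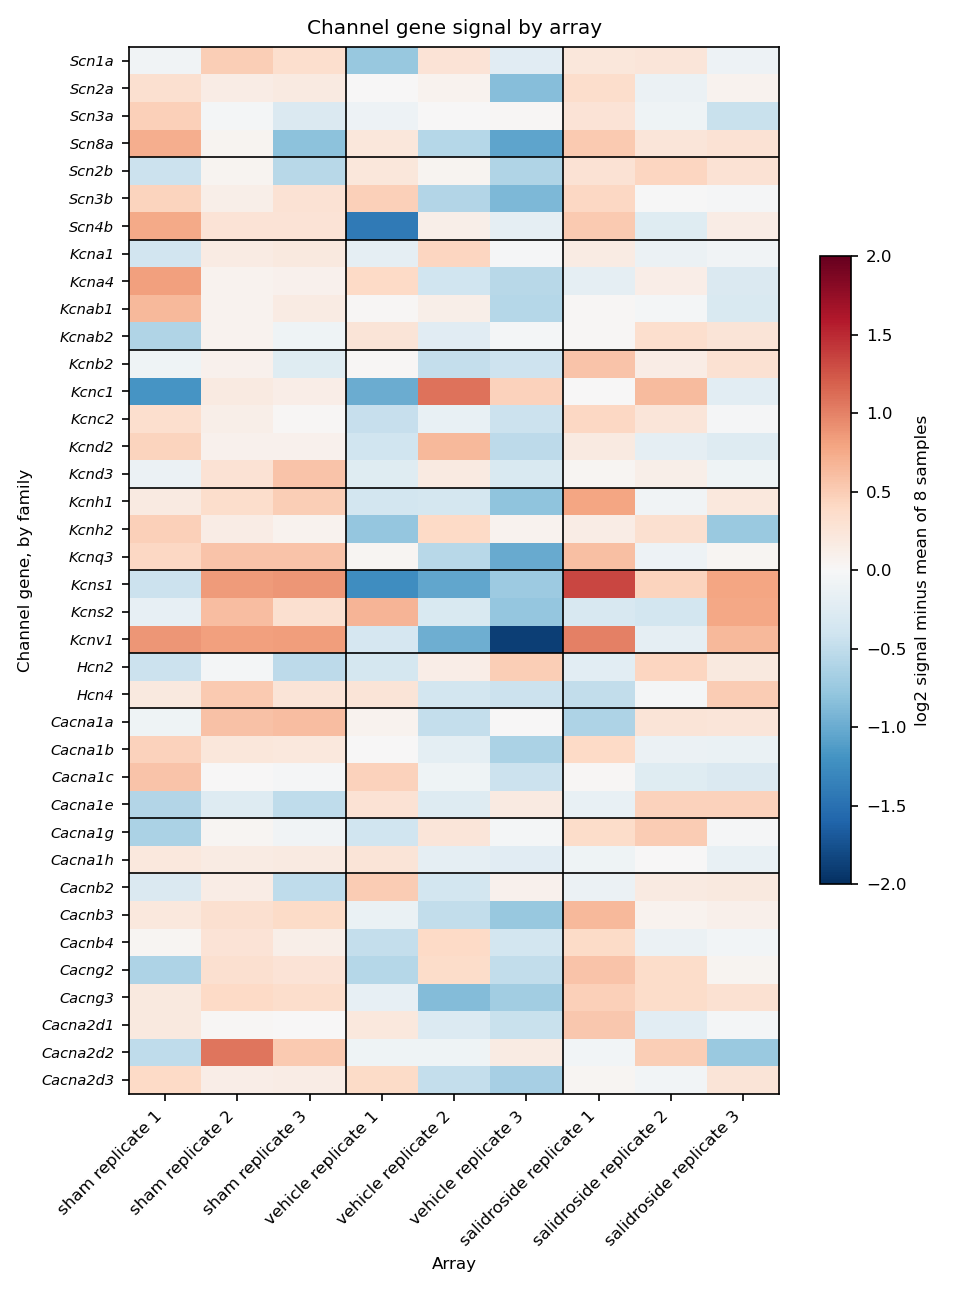
Log2 signal of the 38 tested channel genes on each of the 9 arrays, minus the gene's mean over the 8 samples, with genes in rows by family and arrays in columns by group. Blue cells gather in the vehicle columns, most in vehicle replicate 3, and the strongest blue cell is Kcnv1 there.

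The promoters of 4 members are printed to show the sequence at the start of genes that the results turn on, 2 with the smallest p for salidroside against vehicle and 2 with a match to the EGR motif (GCGNGGGCG, either strand) and an unadjusted p under 0.05 for vehicle against sham. This choice was made after the values and the matches were seen. EGR proteins are zinc finger transcription factors induced by neuronal activity. The windows have 300 bases around the annotated start in RefSeq on the build GRCr8, are written 5′ to 3′ on the gene's strand, and have motif matches in capitals. They lie at chr3:173262297-173262596, minus strand (Kcns1), chr1:186632312-186632611, plus strand (Cacng3), chr7:131666301-131666600, plus strand (Cacnb3) and chr3:27944236-27944535, minus strand (Cacna1b).
Kcns1: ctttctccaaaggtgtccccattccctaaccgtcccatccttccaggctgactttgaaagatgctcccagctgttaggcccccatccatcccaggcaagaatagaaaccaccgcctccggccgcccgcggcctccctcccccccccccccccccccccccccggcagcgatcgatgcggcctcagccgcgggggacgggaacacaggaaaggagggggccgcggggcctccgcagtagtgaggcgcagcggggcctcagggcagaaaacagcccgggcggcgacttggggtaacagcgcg
Cacng3: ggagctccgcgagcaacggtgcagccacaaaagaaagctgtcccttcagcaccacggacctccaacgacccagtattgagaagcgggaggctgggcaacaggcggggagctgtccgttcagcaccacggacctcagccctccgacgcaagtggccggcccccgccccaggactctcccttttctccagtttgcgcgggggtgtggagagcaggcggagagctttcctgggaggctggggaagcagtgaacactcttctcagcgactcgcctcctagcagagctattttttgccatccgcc
Cacnb3: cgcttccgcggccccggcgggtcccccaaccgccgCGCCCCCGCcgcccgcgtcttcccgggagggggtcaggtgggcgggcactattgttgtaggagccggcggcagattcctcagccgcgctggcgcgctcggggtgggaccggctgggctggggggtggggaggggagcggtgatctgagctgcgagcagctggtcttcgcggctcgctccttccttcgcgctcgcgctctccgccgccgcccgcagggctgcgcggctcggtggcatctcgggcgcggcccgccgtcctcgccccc
Cacna1b: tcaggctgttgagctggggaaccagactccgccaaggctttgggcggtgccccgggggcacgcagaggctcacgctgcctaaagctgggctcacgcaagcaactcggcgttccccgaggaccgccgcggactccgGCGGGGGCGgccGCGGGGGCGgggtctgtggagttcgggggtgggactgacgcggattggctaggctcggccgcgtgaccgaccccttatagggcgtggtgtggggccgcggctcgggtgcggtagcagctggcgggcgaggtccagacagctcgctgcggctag
Counted in bases from the start, the match in Cacnb3 began at -215, with the motif on the other strand, and those in Cacna1b began at -115 and -103. The windows of Kcns1 and Cacng3 held none of the motifs searched, which says only that these letters are not in these windows.

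The RefSeq table held 33 promoters for 29 of the 41 members. EGR matches stood in the promoters of 8 members (Cacna1b, Cacna1d, Cacna2d1, Cacna2d2, Cacnb3, Hcn2, Kcnq5 and Scn8a), in 24.2% of member promoters against 4.98% of all 33469 promoters in the table. Member promoters were rich in G and C, with a median of 70% against 51.7%, and held a median of 28 CpG against 7. Among promoters with 60% to 80% G and C, 15.4% of 8490 held the EGR motif, and 6 of 20 member promoters (30%) did. The cAMP response element (TGACGTCA, either strand) was in no member promoter and in 1.83% of all. The AP-1 motif (TGANTCA, either strand) was in that of Scn3a alone among members and in 7.33% of all. A match is a description of the sequence and not a binding site.

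The 4 sodium channel pores were all lower in vehicle than in sham, with a median of -0.448, and 3 of them were higher with salidroside than with vehicle, with a median of 0.357. None had an unadjusted p under 0.05 in either comparison. Scn2a encodes Nav1.2, a pore of excitatory neurons and their axons. Its log2 levels were 3.98, 3.81 and 3.84 in sham replicates 1, 2 and 3, 3.67, 3.74 and 2.81 in the vehicle replicates and 4.01, 3.54 and 3.73 in the salidroside replicates. Every vehicle array lay below every sham array, with vehicle replicate 3 far below the other two. The vehicle mean differed from sham by -0.49 (SE 0.30, unadjusted p = 0.146, adjusted p = 0.437), and by -0.197 without vehicle replicate 3.

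Scn8a, which encodes Nav1.6 of the axon initial segment and nodes of Ranvier, was dim. It was well above background on 1 sham, 1 vehicle and 3 salidroside arrays, so it passed the filter only through the salidroside group, where its mean was highest. Its levels were -5.84, -6.50 and -7.38 in sham, -6.33, -7.13 and -7.61 in vehicle and -6.03, -6.31 and -6.27 with salidroside. The salidroside arrays lay close together, the lowest just above the highest vehicle array, while the sham arrays spanned both groups. For Scn8a the vehicle mean differed from sham by -0.63 (SE 0.43, unadjusted p = 0.179, adjusted p = 0.477), and by -0.083 without sham replicate 1. Salidroside minus vehicle was 0.82 (SE 0.38, unadjusted p = 0.0662, adjusted p = 0.991), and 0.529 without vehicle replicate 3. Scn1a (Nav1.1, prominent in inhibitory neurons) differed by -0.40 between vehicle and sham and by 0.36 between salidroside and vehicle. For Scn3a (Nav1.3, high in embryonic brain) these differences were -0.18 and -0.061, within the spread of the groups.

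The sodium beta subunits are membrane proteins with an immunoglobulin-like domain that bind the pore and modulate its gating. All 3 were higher with salidroside than with vehicle, with a median of 0.464, and 2 of the 3 were lower in vehicle than in sham. Scn4b, the subunit tied to resurgent sodium current, read 1.19, 0.70 and 0.70 in sham, -0.98, 0.55 and 0.26 in vehicle and 0.95, 0.19 and 0.58 with salidroside. The vehicle arrays were below all sham arrays, vehicle replicate 1 by the most. The vehicle mean stood at -1.004 against sham, a 2-fold lower signal (SE 0.46, unadjusted p = 0.0618, adjusted p = 0.294), and at -0.542 without vehicle replicate 1. Scn4b is also a transcript of striatal spiny neurons, and sham replicate 1, the array with high striatal markers, had its highest level.

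Scn3b read 4.14, 3.82 and 3.99 in sham, 4.18, 3.12 and 2.81 in vehicle and 4.12, 3.69 and 3.68 with salidroside. Vehicle replicate 1 was above sham, and the other two vehicle arrays were the lowest of all 9, for a vehicle minus sham of -0.66 (SE 0.39, unadjusted p = 0.131, adjusted p = 0.414), and leaving out vehicle replicate 1 or 3 gave -1.061 or -0.378, in that order. Scn2b read -6.18, -5.70 and -6.30 in sham, where 2 arrays were well above background, -5.52, -5.70 and -6.34 in vehicle and -5.46, -5.32 and -5.45 with salidroside. Scn2b passed the filter only through the MCAO groups. All its salidroside arrays were above all vehicle and sham arrays. The difference was 0.44 (SE 0.23, unadjusted p = 0.091, adjusted p = 0.991) against vehicle, 0.198 without vehicle replicate 3, and 0.68 (SE 0.26, unadjusted p = 0.0301, adjusted p = 0.309) against sham.

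**Figure D2:**
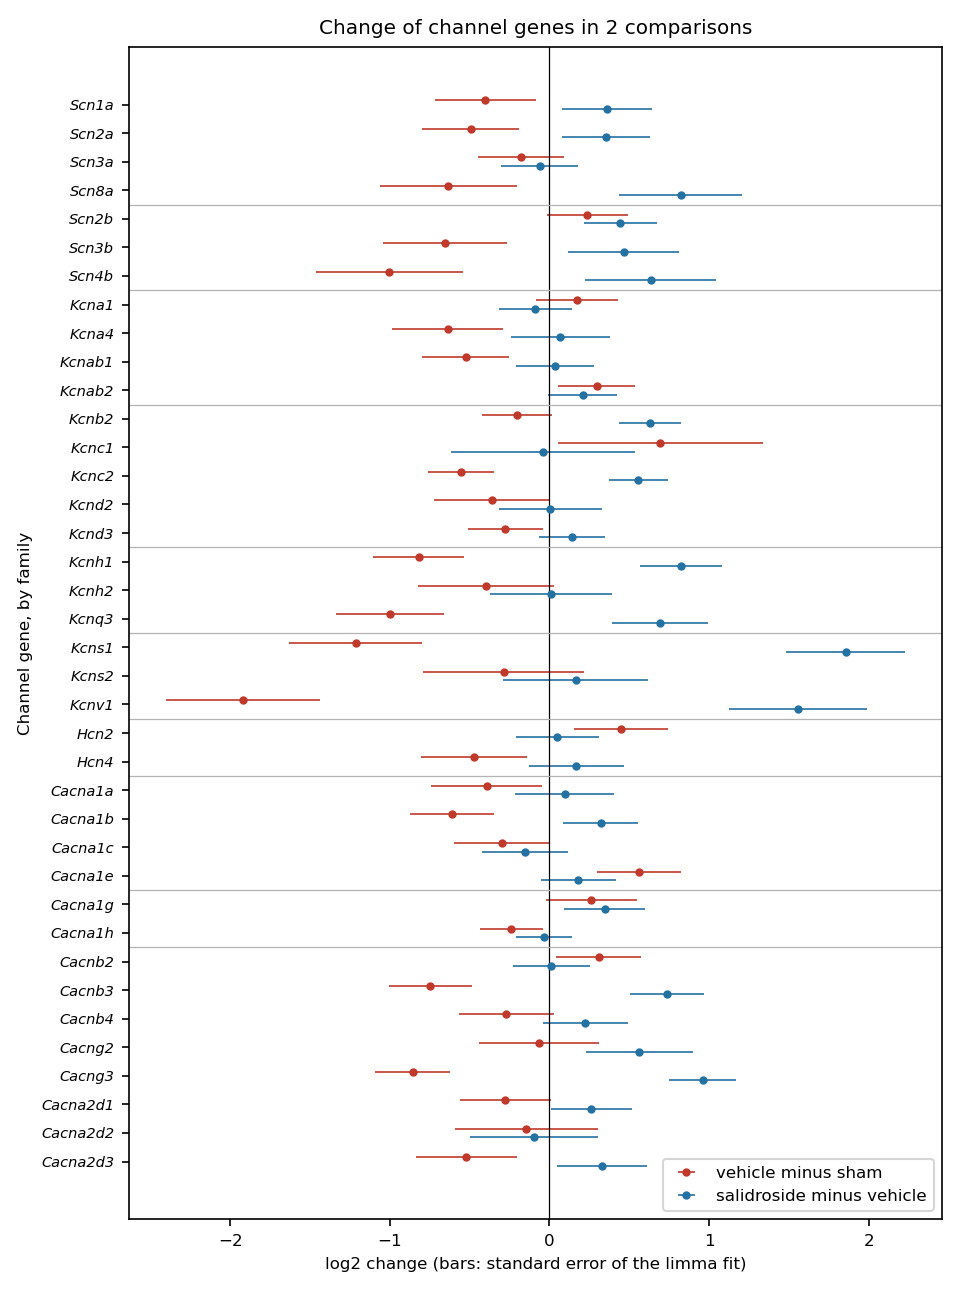
Log2 difference of each of the 38 tested channel genes between vehicle and sham (red) and between salidroside and vehicle (blue), with bars of 1 standard error of the limma fit; grey lines part the families. Most red points lie left of 0 (30 of 38) and most blue points right of it (32 of 38), with Kcnv1 and Kcns1 farthest out, and no point passed an adjusted p of 0.05.

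Among Kv1 pores and the Kv beta subunits, which attach to them inside the cell, signs were mixed: 2 of the 4 tested genes were lower and 2 higher in vehicle than in sham, with a median of -0.176. Salidroside minus vehicle had a median of 0.052. Kcna4 (Kv1.4, a fast inactivating axonal pore) read -0.37, -1.12 and -1.11 in sham, -0.80, -1.59 and -1.76 in vehicle and -1.38, -1.06 and -1.49 with salidroside. The groups overlapped, since vehicle replicate 1 lay above sham replicates 2 and 3, and the difference between vehicle and sham was -0.64 (SE 0.35, unadjusted p = 0.104, adjusted p = 0.375), or -0.265 without sham replicate 1. Kcnab1, a beta subunit that speeds inactivation, read 3.69, 3.13 and 3.21 in sham, 3.07, 3.17 and 2.48 in vehicle and 3.07, 3.01 and 2.75 with salidroside. All salidroside arrays were below all sham arrays, while the vehicle arrays overlapped both groups and vehicle replicate 3 was the lowest of all. Vehicle minus sham was -0.53 (SE 0.27, unadjusted p = 0.0908, adjusted p = 0.35), and -0.264 without sham replicate 1 or -0.31 without vehicle replicate 3. A second, dim probe of Kcnab1 gave 0.35 for the same comparison, so its 2 probes differ in sign.

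Kcnab2, the other beta subunit, read -4.27, -3.60 and -3.75 in sham, -3.42, -3.90 and -3.71 in vehicle and -3.65, -3.34 and -3.41 with salidroside. Sham replicate 1 was the lowest array and the other groups overlapped, with salidroside minus vehicle of 0.21 (SE 0.22, unadjusted p = 0.368, adjusted p = 0.991), and leaving out vehicle replicate 2 or 1 gave 0.095 or 0.337, in that order. Kcna1 (Kv1.1) differed by 0.17 between vehicle and sham and by -0.088 between salidroside and vehicle.

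The Kv2, Kv3 and Kv4 genes encode delayed rectifiers, pores of fast spiking cells and the A-type pores of dendrites. In vehicle against sham, 4 of the 5 were lower, with a median of -0.276, and 4 of the 5 were higher with salidroside than with vehicle, with a median of 0.142. Kcnc2 (Kv3.2, a pore of fast spiking neurons) read 2.45, 2.24 and 2.14 in sham, 1.65, 1.97 and 1.68 in vehicle and 2.53, 2.36 and 2.09 with salidroside. The vehicle arrays were below all other arrays, and sham and salidroside overlapped. Differences were, for vehicle minus sham, -0.55 (SE 0.21, unadjusted p = 0.0291, adjusted p = 0.221) and salidroside minus vehicle 0.56 (SE 0.18, unadjusted p = 0.0177, adjusted p = 0.905). Both probes of Kcnc2 had the same signs in each of these comparisons.

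Kcnb2 (Kv2.2, a delayed rectifier) read -4.18, -4.01 and -4.33 in sham, -4.07, -4.56 and -4.50 in vehicle and -3.52, -3.95 and -3.78 with salidroside. Its salidroside arrays were above all others, while sham and vehicle overlapped. Salidroside minus vehicle was 0.63 (SE 0.19, unadjusted p = 0.0124, adjusted p = 0.862). Kcnd3 (Kv4.3, an A-type pore) read -5.06, -4.65 and -4.37 in sham, -5.17, -4.76 and -5.25 in vehicle and -4.90, -4.83 and -5.03 with salidroside. Its groups overlapped and vehicle minus sham was -0.28 (SE 0.23, unadjusted p = 0.272, adjusted p = 0.575), which was -0.547 without sham replicate 1 and -0.425 without vehicle replicate 2. Kcnc1 (Kv3.1) had the largest positive vehicle minus sham difference of the 38, 0.69 (SE 0.64), and also the largest standard error, with levels from -2.72 in sham replicate 1 to -0.45 in vehicle replicate 2, the array with high cerebellar markers. Kcnd2 (Kv4.2) differed by -0.36 and 0.0063 in vehicle minus sham and salidroside minus vehicle.

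Of the 3 tested Kv10, Kv11 and Kv7 genes, Kcnq3 and Kcnh1 were lower in vehicle than in sham and higher with salidroside than with vehicle, while the probes of Kcnh2 differed in sign in both comparisons. With the brightest probe of each gene, the medians of the 3 were -0.817 and 0.69. Kcnq3 encodes Kv7.3, a subunit of the M-current, which restrains repetitive firing. It read 3.49, 3.65 and 3.65 in sham, 3.13, 2.52 and 2.07 in vehicle and 3.68, 2.99 and 3.12 with salidroside. Every vehicle array lay below every sham array, and vehicle replicate 1 overlapped the salidroside arrays. The vehicle signal was 2-fold lower than sham, a log2 difference of -0.997 (SE 0.34, unadjusted p = 0.0191, adjusted p = 0.189). Salidroside minus vehicle was 0.69 (SE 0.30, unadjusted p = 0.0528, adjusted p = 0.991), and its 2 probes had the same signs in both comparisons.

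Kcnh1, which encodes the slowly activating pore Kv10.1 (EAG1), read 2.11, 2.29 and 2.42 in sham, 1.55, 1.57 and 1.12 in vehicle and 2.72, 1.86 and 2.14 with salidroside. All vehicle arrays were below all sham and all salidroside arrays. The differences were -0.82 (SE 0.28, unadjusted p = 0.022, adjusted p = 0.199) for vehicle minus sham and, for salidroside minus vehicle, 0.82 (SE 0.26, unadjusted p = 0.0129, adjusted p = 0.864). Kcnh2 (Kv11.1, ERG1) differed by -0.40 between vehicle and sham on its brighter probe and by 0.73 on the other, and by 0.0081 and -0.086 between salidroside and vehicle, so no direction is given.

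The silent Kv subunits do not form working channels alone: they join Kv2 pores and alter their gating. Their median was -1.21 in vehicle minus sham and 1.56 in salidroside minus vehicle, the outermost of the 10 families in both. Kcnv1 (Kv8.1), a transcript of forebrain neurons, read 1.87, 1.80 and 1.81 in sham, 0.64, 0.011 and -0.90 in vehicle and 1.99, 0.81 and 1.63 with salidroside. The sham arrays were nearly equal, every vehicle array was below every array of the other groups, and salidroside replicates 1 and 3 were close to sham. Means were 1.84 ± 0.044 (SD, n = 2) in sham, -0.083 ± 0.77 (SD, n = 3) in vehicle and 1.47 ± 0.60 (SD, n = 3) with salidroside. The vehicle signal was 3.78-fold lower than sham, with a log2 difference of -1.92 (SE 0.48, unadjusted p = 0.00446, adjusted p = 0.124) and a 95% interval of -3.04 to -0.80. The adjusted p was 0.0502 with the 9 arrays as separate samples. With salidroside it was 2.94-fold higher than with vehicle, a log2 difference of 1.56 (SE 0.43, unadjusted p = 0.00748, adjusted p = 0.759), and 1.35 and 1.98 within slides 1 and 2.

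Kcns1 (Kv9.1), whose promoter is printed above, read -3.88, -2.59 and -2.57 in sham, -4.68, -4.48 and -4.17 in vehicle and -2.11, -3.002 and -2.66 with salidroside. All vehicle arrays lay below the others, and sham replicate 1 stood near them. The salidroside signal was 3.62-fold higher than vehicle, with a log2 difference of 1.85 (SE 0.37, unadjusted p = 0.00123, adjusted p = 0.543) and a 95% interval of 0.99 to 2.72. It was the largest of the 38 in that comparison, and was 1.60 and 2.37 within slides 1 and 2. Vehicle minus sham was -1.21 (SE 0.41, unadjusted p = 0.0202, adjusted p = 0.193), and -1.87 without sham replicate 1. Kcns2 (Kv9.2) overlapped between groups, with -0.29 and 0.16 in vehicle minus sham and salidroside minus vehicle.

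**Figure D3:**
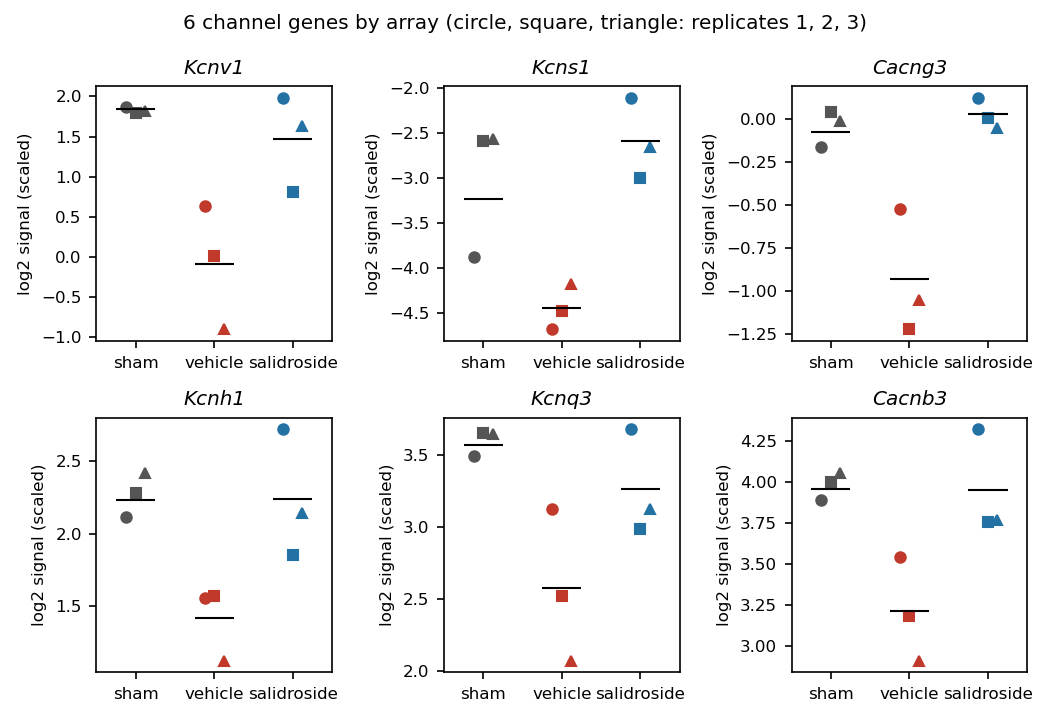
Log2 signal (minus the array's 75th percentile) of 6 channel genes on each array, chosen after their values were seen, with circle, square and triangle for replicates 1, 2 and 3, and a line at the group mean (sham replicates 2 and 3 averaged first). In each gene the vehicle arrays lie below the sham arrays, and below the salidroside arrays except for Kcnq3, where vehicle replicate 1 reaches 3.13.

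HCN channels open on hyperpolarisation and carry the pacemaker current Ih. Hcn2 read -5.72, -5.33 and -5.82 in sham, -5.65, -5.16 and -4.80 in vehicle and -5.50, -4.86 and -5.10 with salidroside, with 2 sham arrays well above background. Its groups overlapped between vehicle and sham, with a difference of 0.45 (SE 0.29, unadjusted p = 0.165, adjusted p = 0.459), or 0.248 without vehicle replicate 3. Hcn4 read -2.04, -1.70 and -1.97 in sham, -1.97, -2.60 and -2.66 in vehicle and -2.73, -2.28 and -1.73 with salidroside. Vehicle minus sham was -0.47 (SE 0.33, unadjusted p = 0.193, adjusted p = 0.492) and salidroside minus vehicle 0.17 (SE 0.30), which became -0.089 without salidroside replicate 3. The members Hcn2 and Hcn4 thus had opposite signs in vehicle against sham, both within their spread.

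High-voltage activated calcium pores open with strong depolarisation, and 3 of the 4 tested were lower in vehicle than in sham on their brightest probe, with a median of -0.344. Salidroside minus vehicle had a median of 0.138, with 3 of 4 above 0. Cacna1b encodes the N-type pore Cav2.2 of presynaptic terminals, and its promoter with the paired EGR matches is printed above. It read 1.02, 0.79 and 0.76 in sham, 0.57, 0.36 and -0.074 in vehicle and 0.95, 0.45 and 0.42 with salidroside, from 10 spots an array. Every vehicle array was below every sham array, and salidroside overlapped both. On this probe vehicle minus sham was -0.61 (SE 0.26, unadjusted p = 0.0491, adjusted p = 0.267) and salidroside minus vehicle 0.32 (SE 0.23, unadjusted p = 0.208, adjusted p = 0.991), the latter 0.14 without vehicle replicate 3 and 0.148 without salidroside replicate 1. A second probe gave 0.23 for vehicle minus sham, so the probes of Cacna1b differ in sign.

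Cacna1e, the R-type pore Cav2.3, stood the other way. It read -2.78, -2.45 and -2.69 in sham, -1.90, -2.45 and -2.01 in vehicle and -2.34, -1.74 and -1.73 with salidroside. The MCAO arrays lay above sham once sham replicates 2 and 3 were averaged, although sham replicate 2 and vehicle replicate 2 read alike. Vehicle minus sham was 0.56 (SE 0.26, unadjusted p = 0.0678, adjusted p = 0.307) and salidroside minus sham 0.74 (SE 0.26, unadjusted p = 0.0238, adjusted p = 0.281), the largest of the 38 in that comparison. Cacna1a (P/Q-type Cav2.1, a presynaptic pore abundant in Purkinje cells) differed by -0.39 between vehicle and sham on its brighter probe and by 0.076 on the other, and by 0.095 in salidroside minus vehicle. Cacna1c (L-type Cav1.2) differed by -0.30 in vehicle minus sham and by -0.15 in salidroside minus vehicle on its brighter probe. The other probe gave 0.29 in salidroside minus vehicle, so the 2 differ in sign there.

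T-type calcium pores open near rest and support burst firing, as in thalamic neurons. Cacna1g (Cav3.1) read -1.07, -0.41 and -0.52 in sham, -0.85, -0.20 and -0.47 in vehicle and -0.079, 0.067 and -0.47 with salidroside. Its groups overlapped: vehicle minus sham was 0.26 (SE 0.29, unadjusted p = 0.387, adjusted p = 0.675), and -0.043 without sham replicate 1, and salidroside minus vehicle was 0.34 (SE 0.26, unadjusted p = 0.216, adjusted p = 0.991), or 0.176 without vehicle replicate 1. Cacna1h (Cav3.2) read -2.44, -2.48 and -2.47 in sham, -2.39, -2.84 and -2.88 in vehicle and -2.74, -2.65 and -2.81 with salidroside. Its sham arrays were within a narrow range, vehicle replicate 1 lay above them, and vehicle minus sham was -0.24 (SE 0.20, unadjusted p = 0.26, adjusted p = 0.562), and leaving out vehicle replicate 1 or 3 gave -0.396 or -0.152, in that order.

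Of the 8 calcium channel auxiliary subunits, 7 were lower in vehicle than in sham, with a median of -0.273, and 7 were higher with salidroside than with vehicle, with a median of 0.295. Cacng3, a transmembrane AMPA receptor regulatory protein of the calcium channel gamma family, read -0.16, 0.045 and -0.012 in sham, -0.52, -1.22 and -1.05 in vehicle and 0.13, 0.0083 and -0.050 with salidroside. The vehicle arrays were below all 6 others, and sham and salidroside overlapped. Means were -0.073 ± 0.13 (SD, n = 2), -0.93 ± 0.37 (SD, n = 3) and 0.028 ± 0.089 (SD, n = 3). The vehicle signal was 1.81-fold lower than sham, a log2 difference of -0.86 (SE 0.23, unadjusted p = 0.00677, adjusted p = 0.139). The salidroside signal was 1.94-fold higher than vehicle, a log2 difference of 0.96 (SE 0.21, unadjusted p = 0.00199, adjusted p = 0.586) with a 95% interval of 0.47 to 1.44, and 0.76 and 1.35 within slides 1 and 2.

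Cacnb3, a beta subunit that brings high-voltage activated pores to the membrane, read 3.89, 3.999 and 4.05 in sham, 3.54, 3.18 and 2.91 in vehicle and 4.32, 3.75 and 3.77 with salidroside. Its vehicle arrays were also below all others. They differed from sham by -0.75 (SE 0.26, unadjusted p = 0.0218, adjusted p = 0.198), and salidroside minus vehicle was 0.74 (SE 0.23, unadjusted p = 0.0141, adjusted p = 0.864). Cacng2 (stargazin, another AMPA receptor regulatory protein) differed by -0.067 in vehicle minus sham and by 0.56 in salidroside minus vehicle. The alpha2delta subunits, which aid the surface expression of the pores, differed in vehicle minus sham by -0.28 (Cacna2d1), -0.15 (Cacna2d2) and -0.52 (Cacna2d3), and in salidroside minus vehicle by 0.26, -0.098 and 0.33. The remaining beta subunits differed by 0.31 (Cacnb2) and -0.27 (Cacnb4) in vehicle minus sham and by 0.013 and 0.22 in salidroside minus vehicle. The 7 genes at an unadjusted p under 0.05 in salidroside against vehicle (Kcns1, Cacng3, Kcnv1, Kcnb2, Kcnh1, Cacnb3 and Kcnc2) differed by 0.425 to 1.60 within slide 1 and by 0.56 to 2.37 within slide 2. In each of them every salidroside array lay above every vehicle array, which fixes the sign within both slides.

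Medians were further from 0 for the brighter channel genes, a difference that was not tested. In vehicle minus sham the median of all features was also lower in the brighter range, by a similar amount, so that difference was not particular to channel genes. The mean of 15 members lay at or above the 75th percentile of the arrays, and 14 of these were lower in vehicle than in sham, with a median of -0.554, where the 5674 features in that range had a median of -0.068. For the 23 members below the percentile the median was -0.269, where 17110 features had 0.205. In salidroside minus vehicle the medians were 0.464 for the 15 and 0.164 for the 23, where the features had 0.051 and 0.048.

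Markers of cortical projection neurons differed in the same directions as most channel genes. All 7 tested genes of that list (Neurod6, Tbr1 and others) were lower in vehicle than in sham, with a median of -0.54, and all 7 were higher with salidroside than with vehicle, with a median of 0.785. Its mean level ranged from -0.22 to 0.65 over the sham arrays, from -0.76 to 0.019 in vehicle and from 0.082 to 0.52 with salidroside, and all 7 genes were well above background on every array. The mean level of the channel genes ranged from 0.073 to 0.25 in sham, from -0.41 to -0.12 in vehicle and from 0.056 to 0.24 with salidroside. Of 10 pan-neuronal markers, 7 were lower in vehicle than in sham, with a median of -0.323, and 10 were higher with salidroside than with vehicle, with a median of 0.223. Medians for these 2 comparisons were -0.298 and 0.148 for inhibitory neuron markers and -1.161 and 0.146 for striatal ones. The striatal list stood at 2.18 in sham replicate 1 alone, at -0.41 and -0.56 in sham replicates 2 and 3, and from -0.47 to -0.13 in vehicle. Medians of thalamic and diencephalic markers were 0.322 and -0.109, with 5 of 6 above 0 in vehicle minus sham but 3 above and 3 below in salidroside minus vehicle. Cerebellar markers (1.161 and -1.096) went the other way. That list stood at 2.32 in vehicle replicate 2, and at -0.18 and 0.095 in vehicle replicates 1 and 3. Of 8 microglial and macrophage markers, 7 were higher in vehicle than in sham, with a median of 0.746, and salidroside minus vehicle had a median of -0.56. The part of these cell type markers in the channel results was not tested.

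**Figure D4:**
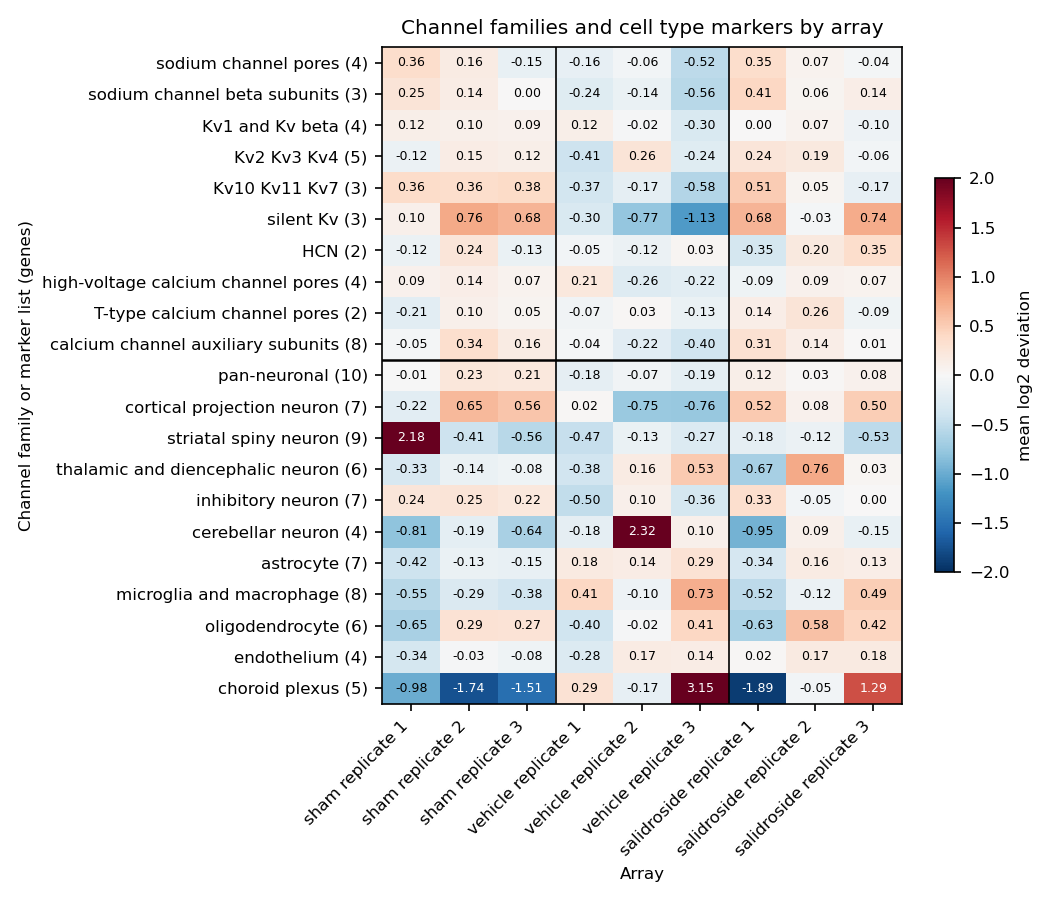
Mean log2 deviation from the mean over samples for the 10 channel families (upper block) and 11 lists of cell type markers (lower block) on each of the 9 arrays, with the number of tested genes in brackets and colours ending at -2.0 and 2.0. The silent Kv row and the cortical projection neuron row are both lowest in vehicle replicates 2 and 3, while single arrays stand out for striatal (2.18), cerebellar (2.32) and choroid plexus (3.15) markers.

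Of 63 other genes of these channels (further pores, accessory proteins and sodium channel partners), 60 had a probe and 53 were tested. None was called by limma in any comparison. In vehicle against sham, 33 had a difference above 0 and 20 below 0, with a median of 0.080. Of all features 60.8% were above 0, and 30 of the 38 members were below 0. As members were chosen with earlier results of these data known, their contrast with the other genes is not independent of that choice. At an unadjusted p under 0.05, 7 were lower and 3 higher, where the shares of all features were 5.42% and 13.2%. In salidroside against vehicle 41 were above 0 and 12 below, with a median of 0.157, where 57.6% of all features were above 0. At that threshold 8 were higher and 0 lower, where the shares of all features were 2.63% and 2.38%. The 3 higher in vehicle than in sham, named after their values were seen, encode Kv pores: Kcna3 (Kv1.3) at 0.99 (SE 0.30, unadjusted p = 0.0118, adjusted p = 0.165), Kcna7 (Kv1.7) at 1.29 (SE 0.43, unadjusted p = 0.0189, adjusted p = 0.188) and Kcnc4 (Kv3.4) at 1.05 (SE 0.42, unadjusted p = 0.0379, adjusted p = 0.244). In each of these 3 every vehicle array lay above every sham array, and vehicle and salidroside overlapped. Of all features, 23.9% had every vehicle sample above every sham sample. Kcna3 was dim, with 2 sham, 3 vehicle and 3 salidroside arrays well above background, and passed the filter on dim probes only through the MCAO groups. Kcnh4, which encodes Kv12.3 (ELK1), read 0.17, 0.095 and 0.014 in sham, -0.65, -1.08 and -1.0004 in vehicle and 0.43, 0.099 and 0.064 with salidroside. Every vehicle array was below all others, for a vehicle minus sham of -1.02 (SE 0.21, unadjusted p = 0.0013, adjusted p = 0.0902) and a salidroside minus vehicle of 1.11 (SE 0.18, unadjusted p = 0.000394, adjusted p = 0.355). Cacna1i, the T-type pore Cav3.3, read 2.96, 3.64 and 3.58 in sham, 2.22, 2.35 and 2.28 in vehicle and 2.29, 2.89 and 2.62 with salidroside. Both MCAO groups lay below sham, with vehicle minus sham at -1.003 (SE 0.26, unadjusted p = 0.00491, adjusted p = 0.127). With all 9 arrays as separate samples, Kcnh4 and Cacna1i passed in vehicle against sham (adjusted p = 0.0269 and 0.0451), and still none of the 38 members did. Kcnh7 (Kv11.3, ERG3) read -5.58, -5.24 and -5.28 in sham, -6.09, -6.20 and -6.31 in vehicle and -4.996, -5.55 and -5.14 with salidroside, with vehicle below all others and a salidroside minus vehicle of 0.97 (SE 0.20, unadjusted p = 0.00124, adjusted p = 0.543).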

How the data were processed

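Per the file headers, the authors extracted spot signals with Agilent Feature Extraction (version 11.0.1.1, protocol GE1_1100_Jul11, design built on rn4), and the deposited signals are fluorescence intensity values on a linear scale, background-subtracted within an array and not normalized between arrays. A deposited table of log2 values for 19477 probes served as an alternative. Its column medians run from 8.691 to 8.706 with a shared maximum of 17.91, and its columns follow the scanner values of the same arrays (r of 0.99967 or more on the log2 scale). It is not centred per gene, and how the authors scaled it is not given in the sources used here.

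In R 4.3.3 with limma 3.58.1, log2 processed signals were set relative to the 75th percentile of their array. Outlier spots were dropped and spots of a probe averaged. Probes well above background (by at least 0.5 of their spots) on all arrays of at least 1 group were tested, and the brightest probe stood for a gene. Symbols came from RefSeq transcript accessions (assembly GRCr8, names only), which named 18005 of 30367 probes. A model of 3 groups was fitted over 22784 features (lmFit, eBayes, 5 residual and 2.62 prior degrees of freedom), and a feature was called where its Benjamini-Hochberg adjusted p was below 0.05. Every channel gene tested had a value on each array. The fit was planned on 9 arrays. After sham replicates 2 and 3 were found to agree within spot noise they were averaged, and the fit of 9 arrays became an alternative. The labels give 3 rats a group. The steps were tested on simulated data. The number of arrays limits the precision.

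Members and lists were chosen with earlier results of these data known, and 1 cell type marker is not reported here. Per-array values are given for the members with the smallest unadjusted p in each family (up to 2 in the comparison of vehicle with sham, 1 in that of salidroside with vehicle) and for the leading other channel genes. Alternatives covered background correction, scaling, filters, probe choice, slide, array weights, the replicate number, the number in the sample titles and each array left out. The normexp alternative used the median pixel signal in place of the planned mean.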

Additional observations from a re-analysis of the deposited data

How the results depend on the processing

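No channel gene was called under any of the 22 alternatives run for salidroside against vehicle or the 20 run for each of the other comparisons. The count over all features varied: with the 9 arrays as 9 samples, an alternative chosen after seeing the data, limma called 592, 3 and 267 features for vehicle minus sham, salidroside minus vehicle and salidroside minus sham, against 124, 0 and 109. With slide as a random block it called 43, 0 and 44, and with normexp correction 0, 0 and 0. The median of the channel genes in vehicle minus sham was -0.55 under median scaling, where the median of all features moved from 0.122 to -0.05, and ranged from -0.48 to -0.216 with 1 array left out, the last without vehicle replicate 3. In salidroside minus vehicle it was 0.569 under normexp correction, where all features stood at 0.541, and ranged from 0.154 to 0.349 with 1 array left out. In salidroside minus sham it was 0.091 under normexp correction, where all features stood at 0.537, and ranged from -0.156 to 0.034 with 1 array left out. Of 612 recomputed values of named genes, 610 kept their direction and their side of the threshold. The exceptions, with 1 array left out, were Cacna1g in vehicle minus sham, which ranged from -0.043 (without sham replicate 1) to 0.431, and Hcn4 in salidroside minus vehicle, which ranged from -0.089 (without salidroside replicate 3) to 0.411. With the replicate number as a block over the 9 arrays, the medians were -0.38, 0.243 and -0.118 and none of the 38 was called. Vehicle and salidroside arrays of the same number deviated together at r of -0.11, -0.064 and 0.071, so these numbers do not pair the samples. The arrays that share a number in the sample titles deviated together at r of 0.356, 0.466 and 0.354. With that number as a block over the 6 MCAO arrays, chosen after seeing the data, salidroside minus vehicle had the same median of 0.243, none of the 38 was called by limma (adjusted p of at least 0.35), and 10 were higher and 0 lower at an unadjusted p under 0.05, where 5.67% and 4% of all features were. The cause of these shifts was not tested. Genes near background, such as Scn8a, Scn2b, Hcn2, Cacnb2 and Cacna2d2, were not well above background on every array. Of these, Scn8a passed the filter only through the salidroside arrays, and the others only through the MCAO groups.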

Other observations

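The 4 channel genes printed in 10 spots an array (Scn4b, Kcnd2, Cacna1b and Cacna1c) show how far spot noise reaches. For Scn4b the SD between spots was 0.0374 in vehicle replicate 1, where its level was -0.984, and 0.0452 in vehicle replicate 2, where it was 0.547, so these arrays of 1 group differed by far more than their spots did. Of the 10 channel genes with at least 2 tested probes, the probes of Kcnab1, Kcnh2, Cacna1a and Cacna1b differed in sign for vehicle minus sham. Those of Kcnc2, Kcnd2, Kcnq3, Cacna1c, Cacna1g and Cacnb4 had 1 sign in that comparison. In salidroside minus vehicle the probes of Kcnab1, Kcnd2, Kcnh2 and Cacna1c differed in sign.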
